A study of Mus musculus with 6 samples.

Results

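Transport of glucose, lactate and pyruvate was followed through 10 genes: the facilitative glucose transporters Slc2a1, Slc2a3 and Slc2a4, the monocarboxylate transporters Slc16a1 and Slc16a3 with their chaperone Bsg, the lactate dehydrogenases Ldha and Ldhb, and the mitochondrial pyruvate carrier subunits Mpc1 and Mpc2. They were chosen by symbol, and all 10 were found among the 27179 genes of the count table. RNA came from C2C12 cells, an established mouse myoblast line that fuses into multinucleated myotubes when serum is lowered. The myoblast group is 3 libraries from subconfluent cells in high-glucose DMEM with 10% FBS. The myotube group is 3 libraries from cells that had been at 100% confluence for 3 days and had then spent 5 days in high-glucose DMEM with 2% horse serum and insulin-transferrin-selenium-ethanolamine. Both media held 4 mM L-glutamine. Neither group carries a genetic change that the labels state. Cell density, serum and added insulin differ together with differentiation, so their parts cannot be told apart. Both groups are a single cell line. The labels name a triplicate harvest but no separate cultures. The p-values therefore reflect the spread among these samples alone, which may be technical.

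Glucose enters cells down its gradient through SLC2A carriers. SLC2A1 (GLUT1) is the carrier of most proliferating cells, SLC2A3 (GLUT3) is the high-affinity form known from neurons, and SLC2A4 (GLUT4) is the form of muscle and fat that insulin moves from storage vesicles to the cell surface. Pyruvate made by glycolysis is either reduced to lactate by tetramers of LDHA and LDHB subunits or carried into mitochondria by MPC1 and MPC2, which work as a heterodimer. Lactate crosses the plasma membrane with a proton through SLC16A1 (MCT1) and SLC16A3 (MCT4, known from glycolytic muscle fibres), both of which need the glycoprotein basigin (Bsg) to reach the surface. LDHA predominates in glycolytic muscle and LDHB in heart and oxidative muscle.

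The bases before the start sites are shown for the 4 members whose window holds the letters ACGTG, the core of hypoxia response elements and, within CACGTG, of the E-box that MYC family factors bind. The RefSeq promoter table for GRCm38.p6 had entries for 7 of the 10 members, and windows run from 250 to 6 bases before a listed start. Capitals mark ACGTG on either strand (CACGT on the strand shown), and overlapping matches were merged. The windows are chr4:119108495-119108739 for Slc2a1, chr3:104638414-104638658 for Slc16a1, chr11:120948817-120949061 for Slc16a3 and chr7:46845554-46845798 for Ldha, all on the plus strand. The Slc16a3 and Ldha windows lie inside their genes, which begin at 120948484 and 46842274, so the listed starts they precede are internal.
Slc2a1: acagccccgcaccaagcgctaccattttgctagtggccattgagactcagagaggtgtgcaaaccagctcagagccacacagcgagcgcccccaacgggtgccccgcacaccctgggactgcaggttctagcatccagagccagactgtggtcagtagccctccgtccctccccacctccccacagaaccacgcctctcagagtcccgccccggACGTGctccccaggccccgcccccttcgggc
Slc16a1: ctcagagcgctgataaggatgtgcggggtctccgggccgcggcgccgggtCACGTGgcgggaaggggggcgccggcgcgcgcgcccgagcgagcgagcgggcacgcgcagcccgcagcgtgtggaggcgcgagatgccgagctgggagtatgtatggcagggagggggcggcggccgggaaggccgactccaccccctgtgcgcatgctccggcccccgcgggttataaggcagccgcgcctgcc
Slc16a3: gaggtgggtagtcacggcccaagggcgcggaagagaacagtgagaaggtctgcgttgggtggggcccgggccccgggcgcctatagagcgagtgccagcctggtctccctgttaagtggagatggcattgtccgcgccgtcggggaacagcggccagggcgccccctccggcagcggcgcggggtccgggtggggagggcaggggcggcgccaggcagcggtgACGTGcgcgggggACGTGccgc
Ldha: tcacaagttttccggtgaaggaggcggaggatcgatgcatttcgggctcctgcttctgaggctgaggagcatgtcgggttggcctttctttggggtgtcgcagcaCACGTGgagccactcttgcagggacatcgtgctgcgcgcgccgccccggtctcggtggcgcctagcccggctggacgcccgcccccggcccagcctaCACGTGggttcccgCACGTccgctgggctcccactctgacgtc
The Ldha window held 3 separate matches, the Slc16a3 window 2 and the other two windows 1 each. CACGTG occurred in the Ldha and Slc16a1 windows. The motif was in 16.3% of the 32851 windows of this length in the table, at least 2 matches were in 1.87% and CACGTG in 5.85%. The windows of Ldhb, Mpc1 and Mpc2, and that of a second listed Ldha start, had no match. The motif was chosen with the values below known, and a match is a description of these letters only. The 4 genes shown did not share a direction: Slc2a1 and Slc16a1 fell, while Ldha and Slc16a3 were not called.

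Library totals were 10076945 to 11723881 counts in myoblasts and 7370169 to 8339589 in myotubes. Levels are given as CPM, read counts scaled to library size with TMM factors, and a gene was called when edgeR's quasi-likelihood test gave a Benjamini-Hochberg adjusted p under 0.05 over all 12800 genes tested. All 10 members passed the filter on low counts. Of these, 6 rose in myotubes, 2 fell and 2 were not called, where 79.5% of all genes tested were called, 40.2% higher and 39.2% lower. The share of members called was thus near the background. The test against a 2-fold change called 3 members, Slc2a4 and Ldhb higher and Slc2a1 lower, against 21.6% of all genes (12.4% higher and 9.2% lower). For 8 members every library of one group lay above every library of the other, against 80.5% of genes. The median log2 change was 0.80 over the members and 0.02 over all genes tested.

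**Figure D1:**
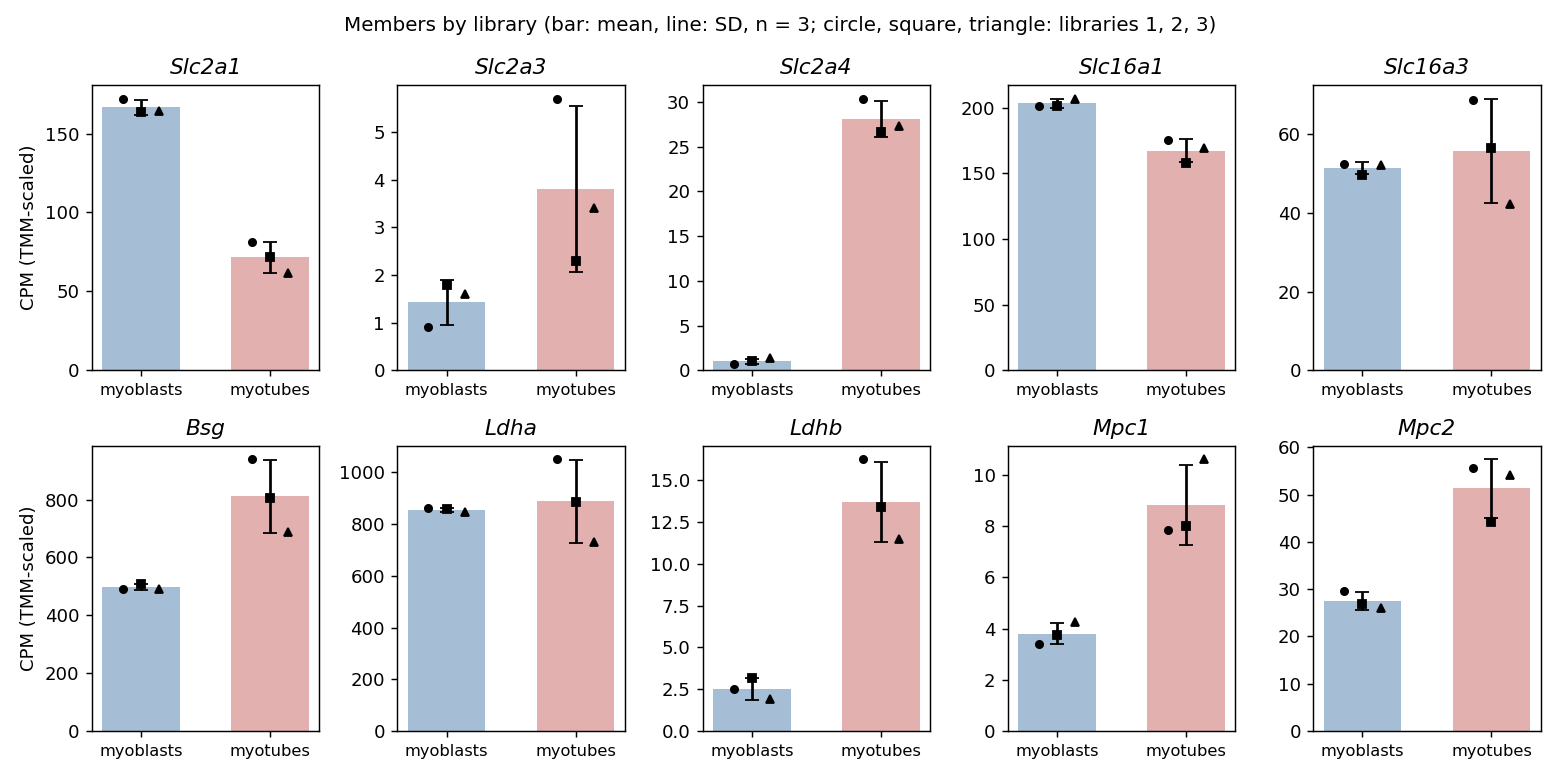
Level of each of the 10 genes in CPM after TMM scaling, with bars for the mean of 3 libraries, lines for the SD and symbols for libraries 1, 2 and 3. Slc2a4 and Ldhb rise well clear of the myoblast libraries, Slc2a1 falls, and the myotube libraries of Ldha and Slc16a3 lie on both sides of the myoblast values.

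All 10 myotube markers rose, their sum going from 290.2 to 310.2 CPM in myoblast libraries to between 16666 and 17699 in myotube libraries, and all 6 proliferation markers fell, from 1738 to 1759 CPM to between 150.2 and 159.6. The myotube libraries still held RNA of reserve cell and satellite cell markers, 4 of the 6 listed being tested. Pax7 was not called (log2 change 0.10) while Spry1 rose by 2.91 and Cd34 by 1.15, and Myf5 fell by 0.13. Pax3 had 2 counts in the myoblast group and 1 in the myotube group, and Calcr had 0 in all libraries. Among fibroblast and bone markers 3 of 5 tested rose, Dcn and Col1a1 most, and 2 fell, Pdgfra most, their sum going from 2917 to 2976 CPM to between 5417 and 6124, whereas Bglap and Alpl had 2 counts or fewer in each group. The background for these marker lists was 40.2% of all genes tested called higher and 39.2% lower. The sums for adipocyte markers were 15.8 to 17.5 and 17.4 to 21.8 CPM, nearly all Lpl, with Adipoq at 0. Macrophage markers summed to at most 2.70 CPM with Adgre1 at 0, endothelial markers to at most 1.71 CPM, and red blood cell markers to at most 1.17 CPM. The part of mononucleated cells in the results that follow was not tested, and in bulk RNA fewer cells of a type and less RNA per cell cannot be told apart.

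The 3 glucose transporters went different ways. Slc2a4 was below 2 CPM in every myoblast library and rose 27.8-fold, Slc2a1 fell to 42.7% of its myoblast level, and Slc2a3 rose 2.61-fold but stayed low. The Slc2a4 level was 0.719, 0.976 and 1.32 CPM in myoblast libraries 1, 2 and 3 and 30.4, 26.7 and 27.3 CPM in the myotube libraries. Every myotube library was above every myoblast library. The log2 change was 4.79 (SE 0.17, adjusted p = 8.24e-19, edgeR), on 34 counts in the myoblast group and 626 in the myotube group. The Slc2a1 level was 172, 164 and 164 CPM in the myoblast libraries and 81.5, 71.5 and 61.5 CPM in the myotube libraries. The groups were again apart, with a log2 change of −1.23 (SE 0.06, adjusted p = 4.20e-14 in edgeR, and adjusted p = 0.00122 against a 2-fold change). For Slc2a3 the myoblast libraries gave 0.899, 1.79 and 1.60 CPM and the myotube libraries 5.71, 2.30 and 3.41 CPM. Its groups did not overlap, but it rests on 10 to 40 counts per library and its myotube values spread widely. The log2 change was 1.38 (SE 0.31, adjusted p = 0.000303 in edgeR), with a 95% interval of 0.73 to 2.03, and 0.99 without myotube library 1. In GRCm38.p6, Slc2a1 lies on chromosome 4 at 119108745 to 119137330, Slc2a3 on chromosome 6 at 122727809 to 122802363 and Slc2a4 on chromosome 11 at 69942286 to 69948216. The counts are of reads on annotated exons. For Slc2a1, 3.22% of exon bases also lie under an antisense transcript, Gm12868 (strand setting of the counter: not given in the sources used here).

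Within each library, Slc2a4 made up 0.416, 0.592 and 0.796% of the combined Slc2a4 and Slc2a1 counts in myoblasts, and 27.2, 27.2 and 30.7% in myotubes. Slc2a1 therefore kept the larger count in every myotube library. The log2 ratio of Slc2a4 to Slc2a1 averaged −7.35 ± 0.45 over myoblast libraries and −1.34 ± 0.14 over myotube libraries (SD, n = 3), 6.02 apart. By exact permutation, two-sided, p was 0.1, the smallest that 3 against 3 libraries allow, or 0.2 after adjustment over the 4 ratios tested.

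The wider family changed in the same comparison. Slc2a6, a carrier known to sit on lysosomes, stood at 1.37 ± 0.504 CPM in myoblasts and rose to 100.2 ± 7.84 CPM (SD, n = 3), which is 6.17 on the log2 scale (SE 0.13, adjusted p = 7.13e-24, edgeR), beside 4.79 for Slc2a4; the difference of these changes was not tested. The myoblast group held 47 counts of it. Of the 14 other hexose carriers listed, 5 were tested, 3 rose, 1 fell and 1 was not called, with a median log2 change of 0.95. Over all genes tested, 40.2% were called higher and 39.2% lower. Slc2a13, the proton-coupled myo-inositol carrier, rose by 1.03, and the urate carrier Slc2a9 fell by 1.40 on 45 and 11 counts. Slc2a8 rose by 0.95, and Slc2a10 was not called, with a log2 change of 0.26. The other 9 were below the filter, and Slc2a2, the liver and beta cell carrier, and Slc5a4b had 0 counts in all libraries. These values for Slc2a8, Slc2a9 and Slc2a10 are named beyond the rule given for named genes.

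Per kilobase of exon, Slc2a1 made up 87.9 ± 1.44% of the summed level of the 12 Slc2a carriers in myoblasts and 24.4 ± 3.20% in myotubes (SD, n = 3). Slc2a6 held 1.10 ± 0.415% and 52.2 ± 3.92%, and Slc2a4 0.617 ± 0.196% and 11.2 ± 0.436%. The summed level was 57.1 to 59.3 CPM per kilobase in myoblast libraries and 85.0 to 93.6 in myotube libraries. By transcript level per length, Slc2a6 and Slc2a1 were thus both above Slc2a4 in each myotube library.

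**Figure D2:**
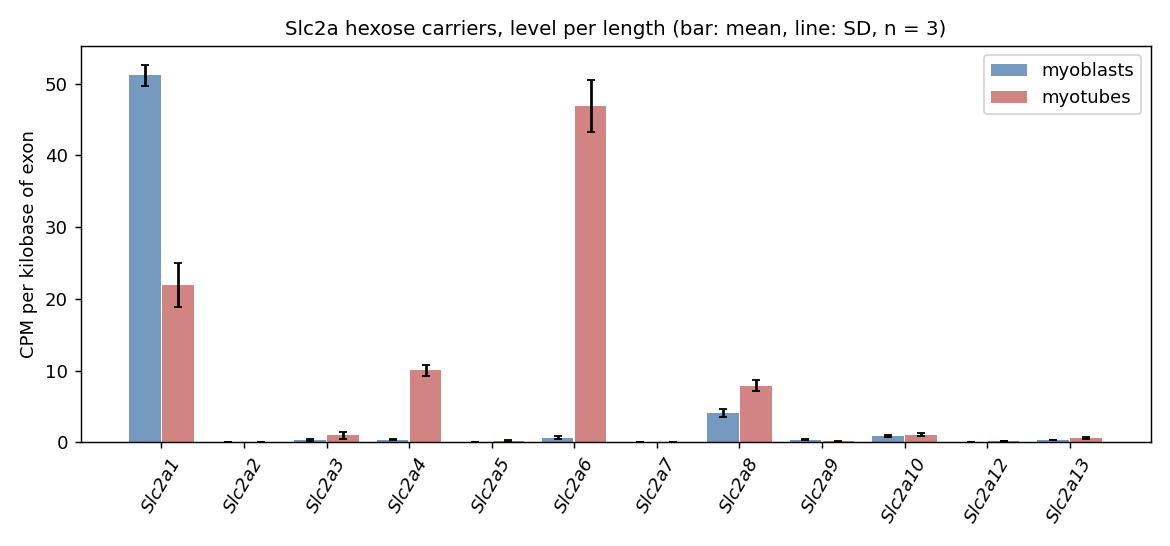
Level per kilobase of exon of the 12 Slc2a carriers in myoblasts and myotubes, with bars for the mean of 3 libraries and lines for the SD. Slc2a1 is highest in myoblasts, and in myotubes Slc2a6 is highest, followed by Slc2a1 and Slc2a4.

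The monocarboxylate transporters and their chaperone did not move as a unit. Slc16a1 fell to 82.4% of its myoblast level, Slc16a3 was not called, and Bsg rose 1.63-fold. The Slc16a1 level was 201, 201 and 207 CPM in the myoblast libraries and 175, 158 and 169 CPM in the myotube libraries. Every myotube library was below every myoblast library, and the log2 change was −0.28 (SE 0.04, adjusted p = 2.65e-06, edgeR). For Bsg the myoblast libraries gave 492, 509 and 489 CPM and the myotube libraries 939.8, 807 and 688 CPM. The groups did not overlap, and the log2 change was 0.71 (SE 0.12, adjusted p = 0.00331, edgeR) with a 95% interval of 0.39 to 1.02. For Slc16a3 the myoblast libraries gave 52.5, 49.8 and 52.1 CPM and the myotube libraries 68.8, 56.4 and 42.2 CPM, where libraries 1 and 2 were above the myoblast values and library 3 below. Its log2 change was 0.11 (SE 0.17, adjusted p = 0.573, edgeR), with a 95% interval of −0.30 to 0.52. Without myotube library 3 it passed (log2 change 0.28, adjusted p = 0.000726), and without myotube library 1 its sign turned (−0.065, adjusted p = 0.481). Scaling by total counts also turned it, to −0.037; that scaling moved the median of all genes tested by −0.15. Slc16a1 lies on chromosome 3 at 104638664 to 104658462, Slc16a3 on chromosome 11 at 120948484 to 120959000 and Bsg on chromosome 10 at 79704358 to 79711979.

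Slc16a3 made up 20.7, 19.8 and 20.1% of the combined Slc16a3 and Slc16a1 counts in myoblasts and 28.2, 26.4 and 20.0% in myotubes. The value of myotube library 3 lay within the myoblast range. The log2 ratio differed by 0.37 between groups, and exact permutation (two-sided) gave p = 0.3, also 0.3 adjusted over the 4 ratios. Of the 16 further SLC16 carriers, sodium-coupled monocarboxylate carriers and chaperones, 9 were tested, 4 rose and 5 fell, with a median log2 change of −0.41. The shares over all genes tested were 40.2% called higher and 39.2% lower. Slc16a13 and Slc16a11, which lie next to each other on chromosome 11 (70216789 to 70222740 and 70213695 to 70216414), dropped by 2.80 and 2.60 (log2). Slc16a13 went from 26.0 ± 2.54 to 3.74 ± 0.916 CPM and Slc16a11 from 49.5 ± 2.48 to 8.21 ± 1.31 CPM (SD, n = 3). The related chaperones embigin (Emb) and neuroplastin (Nptn), added here after their values were seen, fell by 1.36 and 0.41. Both are among the 5 genes that fell, and the median of −0.41 is the value of Nptn. The counts and the sign of the median therefore depend on these additions. Emb shares 23.5% of its exon bases with an antisense transcript and is uncertain. Slc16a7 (MCT2) had 3 counts in the myoblast group and 1 in the myotube group, and Slc5a12 had 0 in all libraries.

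Of the lactate dehydrogenase pair Ldhb rose 5.32-fold and Ldha was not called. Per kilobase of exon Ldha was still the more abundant in every myotube library. The Ldhb level was 2.52, 3.17 and 1.88 CPM in the myoblast libraries and 16.3, 13.4 and 11.5 CPM in the myotube libraries. The groups were well apart, with a log2 change of 2.41 (SE 0.18, adjusted p = 7.65e-12 in edgeR and 5.51e-08 against a 2-fold change). The myoblast group held 87 counts of Ldhb and the myotube group 304. For Ldha the myoblast libraries gave 861, 857 and 847 CPM and the myotube libraries 1051, 885 and 730.1 CPM. The myotube values straddled the myoblast values, and the log2 change was 0.05 (SE 0.14, adjusted p = 0.748, edgeR), with a 95% interval of −0.32 to 0.43. Without myotube library 3 it passed (log2 change 0.18, adjusted p = 0.000836), and without myotube library 1 its sign turned (−0.084, adjusted p = 0.203). Scaling by total counts also turned it, to −0.092.

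Ldhb made up 0.291, 0.369 and 0.222% of the combined lactate dehydrogenase counts in myoblasts and 1.52, 1.49 and 1.55% in myotubes. The 3 myotube values lay close together even though the CPM of both genes spread between those libraries. Their log2 ratio averaged −8.41 ± 0.36 over myoblast libraries and −6.01 ± 0.03 over myotube libraries (SD, n = 3), 2.40 apart. Exact permutation (two-sided) gave p = 0.1, again the smallest possible, and 0.2 adjusted over the 4 ratios. Of 3 further lactate dehydrogenase genes, 0 passed the filter. The testis form Ldhc had 0 counts, and the mitochondrial D-lactate dehydrogenase Ldhd had 2 counts in the myoblast group and 23 in the myotube group. Ldha lies on chromosome 7 at 46842274 to 46855627 and Ldhb on chromosome 6 at 142490249 to 142507957. Of the 50-base windows of the longest coding transcript, 16.6% for Ldha and 27.0% for Ldhb have an exact copy in another gene, mainly processed pseudogenes. Both levels are uncertain to that extent (treatment of reads with several matches: not given in the sources used here).

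Both subunits of the mitochondrial pyruvate carrier rose. Mpc1 rose 2.33-fold and Mpc2 1.86-fold. The Mpc1 level was 3.41, 3.74 and 4.24 CPM in the myoblast libraries and 7.85, 7.99 and 10.6 CPM in the myotube libraries, on 38 to 84 counts per library. For Mpc2 the myoblast libraries gave 29.7, 26.9 and 26.0 CPM and the myotube libraries 55.7, 44.3 and 54.1 CPM. Neither gene's groups overlapped. The log2 changes were 1.22 for Mpc1 (SE 0.17, adjusted p = 6.34e-07) and 0.90 for Mpc2 (SE 0.08, adjusted p = 2.55e-10), by edgeR. Neither passed the test against a 2-fold change. Mpc2 made up 89.7, 87.8 and 86.0% of the pair's counts in myoblasts and 87.6, 84.7 and 83.6% in myotubes. These ranges overlap, and the log2 ratio differed by −0.31, and exact permutation (two-sided) gave p = 0.2, or 0.267 adjusted over the 4 ratios. Mpc1 lies on chromosome 17 at 8283787 to 8297667 and Mpc2 on chromosome 1 at 165461260 to 165481218. For Mpc1, 12.7% of exon bases lie under an antisense transcript, and 29.6% of the 50-base windows of its longest coding transcript have a copy elsewhere, mainly in the pseudogene Mpc1-ps. No such copy was found for Mpc2.

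**Figure D3:**
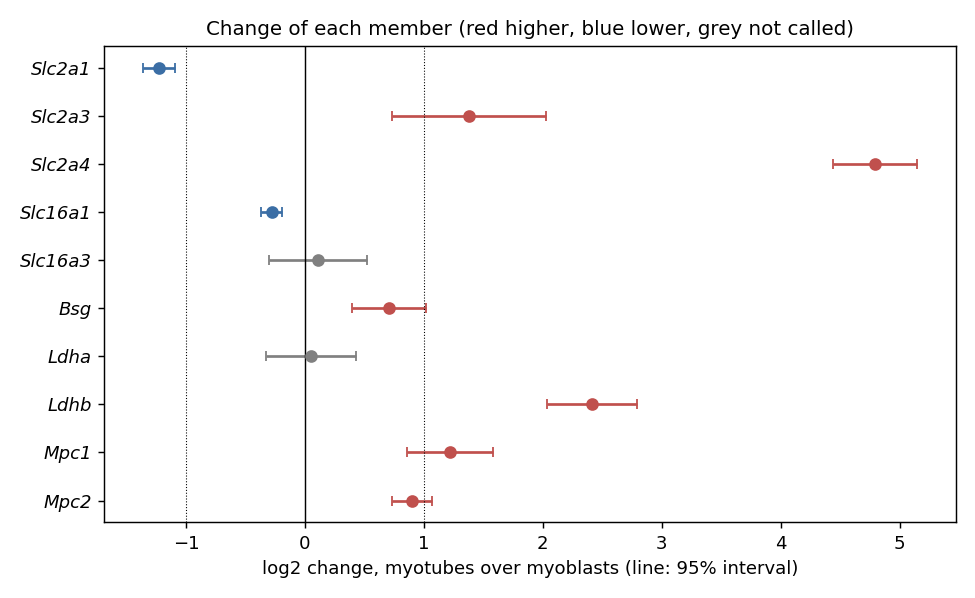
Log2 change of each of the 10 genes, myotubes over myoblasts, with the 95% interval from the edgeR fit, dotted lines at a 2-fold change and colours for the call. The intervals of Slc2a4 and Ldhb lie wholly above the upper 2-fold line and that of Slc2a1 wholly below the lower one, while the intervals of Ldha and Slc16a3 span 0.

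**Figure D4:**
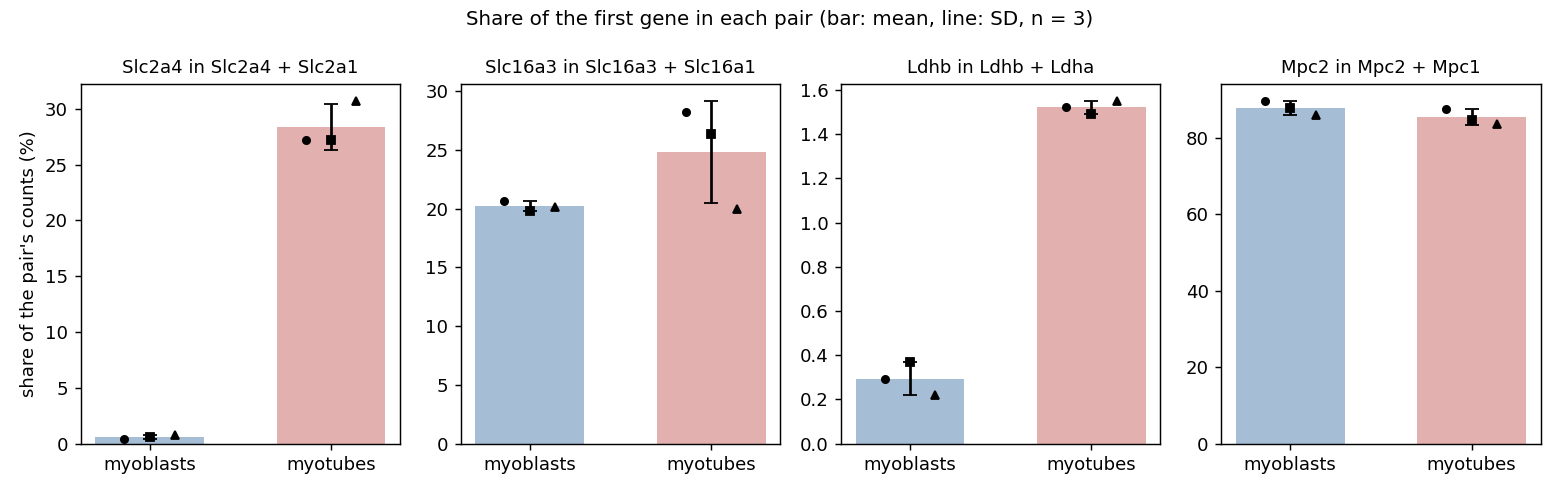
Share of the first gene in the counts of each pair, in percent, by group, with bars for the mean of 3 libraries, lines for the SD and symbols for libraries 1, 2 and 3. The Slc2a4 and Ldhb shares are higher in every myotube library, whereas the Slc16a3 and Mpc2 shares overlap between groups.

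Ordered by level per kilobase of exon, myoblasts had Ldha (451 ± 3.88 CPM per kilobase), Bsg (295 ± 6.37), Slc2a1 (51.2 ± 1.46), Slc16a1 (45.9 ± 0.739), Mpc2 (26.9 ± 1.86), Slc16a3 (11.6 ± 0.331), Mpc1 (2.58 ± 0.283), Ldhb (1.94 ± 0.493), Slc2a3 (0.361 ± 0.119) and Slc2a4 (0.358 ± 0.107; SD, n = 3 for each). The ranges of Mpc1 and Ldhb overlapped, as did those of Slc2a3 and Slc2a4. In myotubes Bsg (483 ± 74.9) and Ldha (469 ± 84.6) led and overlapped, followed by Mpc2 (50.1 ± 6.02), Slc16a1 (37.8 ± 1.99) and Slc2a1 (21.9 ± 3.06). Slc16a3 (12.5 ± 2.99), Ldhb (10.5 ± 1.84) and Slc2a4 (10.0 ± 0.713) overlapped with each other, and Mpc1 (5.997 ± 1.06) and Slc2a3 (0.962 ± 0.439) were lowest. With the length of the longest coding transcript in place of all exon bases, Slc2a3 changed places with Slc2a4 in myoblasts and Ldhb with Slc2a4 in myotubes. The level of Mpc1 depended most on this choice among the members, at 3.95 ± 0.432 CPM per kilobase in myoblasts and 9.17 ± 1.62 in myotubes (SD, n = 3). With that length its myoblast range, 3.55 to 4.41, no longer overlapped that of Ldhb, 1.44 to 2.43. Its myotube range, 8.17 to 11.04, then overlapped those of Ldhb, 8.82 to 12.5, Slc2a4, 10.6 to 12.04, and Slc16a3, 9.73 to 15.9, so the place of Mpc1 in the order is uncertain.

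Most members varied more between myotube libraries than between myoblast libraries. The coefficient of variation was larger in myotubes for 8 of 10, at 18.0% against 0.860% for Ldha, 23.8% against 2.87% for Slc16a3, 15.5% against 2.16% for Bsg and 13.97% against 2.84% for Slc2a1. Among genes averaging 10 CPM or more its median was 5.61% in myotubes and 4.12% in myoblasts. That set leaves out Slc2a3, Ldhb and Mpc1, which average less. The share of all genes with a larger coefficient in myotubes was not computed, so the count of 8 is not read as a trait of the members. Myotube library 1 was the highest of its group for 9 members, Mpc1 being the exception with library 3, where 33.8% of all genes tested were highest in library 1. For 5 members, Slc2a1, Slc16a3, Bsg, Ldha and Ldhb, library 1 was highest and library 3 lowest, an order found in 18.9% of genes tested. Pkm, the pyruvate kinase that feeds lactate dehydrogenase, was named here after its values were seen and had that order too, at 2322, 2089 and 1830 CPM. The other tested genes of its list, Hk1 (204, 209 and 190 CPM) and Hk2 (151, 147 and 171 CPM), did not have that order. The library totals rose in the opposite order, from 7370169 to 7795853 and 8339589 counts, and the part of depth in this spread was not tested.

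**Figure D5:**
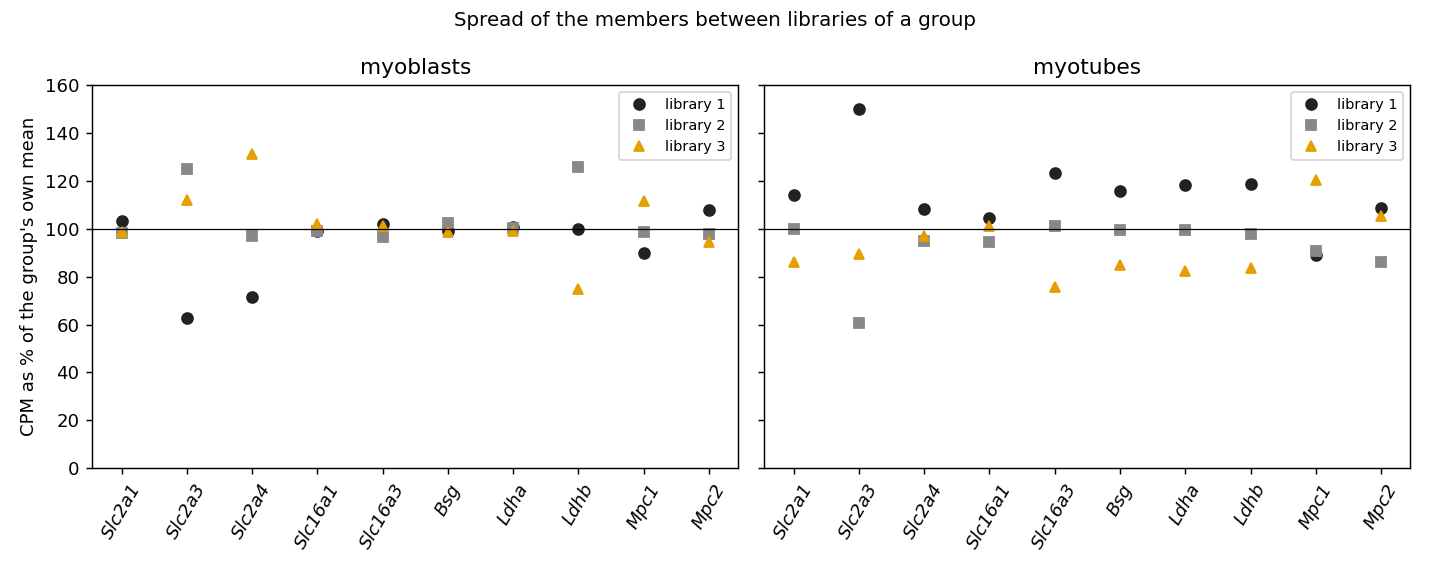
CPM of each of the 10 genes in each library as a percentage of its group's own mean, for myoblasts and myotubes. Among myotubes, library 1 is highest for 9 genes, and library 3 is lowest for Slc2a1, Slc16a3, Bsg, Ldha and Ldhb. The wide myoblast spreads belong to Slc2a3, Slc2a4 and Ldhb, the genes with few counts there.

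Genes of GLUT4 storage and traffic went both ways. Of 20 tested, 12 rose, 7 fell and 1 was not called, with a median log2 change of 0.31. Of all genes tested, 40.2% were called higher and 39.2% lower, so calls in both directions are usual here. Sortilin (Sort1), which sorts SLC2A4 into storage vesicles, stood at 3.68 ± 1.04 CPM in myoblasts against 57.1 ± 4.05 CPM in myotubes (SD, n = 3), a rise of 3.94 on the log2 scale (SE 0.12, adjusted p = 3.53e-20, edgeR). The calcium-sensing fusion protein gene Doc2b rose by 2.89, while the vesicle motor gene Myo5a fell by 1.26. The 3 arrestin-domain genes listed as brakes on glucose uptake all rose, where 40.2% of all genes tested did. Txnip, which promotes removal of SLC2A1 and SLC2A4 from the surface, stood at 68.96 ± 4.41 and 327 ± 24.7 CPM (log2 change 2.24) and Arrdc4 rose by 1.61. Txnip shares 21.4% of its exon bases with an antisense transcript and is uncertain.

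At the steps next to transport, hexokinase 2 (Hk2), the insulin-responsive form of muscle, had 67.5, 70.0 and 69.5 CPM in myoblast libraries and 151, 147 and 171 CPM in myotube libraries, a log2 change of 1.18. Hexokinase 1 (Hk1) fell by 0.75, with 336 ± 2.05 CPM in myoblasts and 201 ± 9.87 CPM in myotubes (SD, n = 3). Pkm was not called, with a log2 change of −0.05, and 4 of the 7 listed kinase genes were below the filter, Hk3 with 0 counts. Of 22 genes of insulin and AMPK signalling 12 rose, 9 fell and 1 was not called, with a median of 0.17. The background for this list and the next was 40.2% of all genes tested called higher and 39.2% lower. Prkag3, the muscle AMPK subunit, rose by 7.18, Grb10, an adaptor that restrains the insulin receptor, by 4.48, and Irs2, a receptor substrate, fell by 1.03. Of 15 factors known to act on members or their partners, 8 rose, 5 fell and 2 were not called, with a median of 0.21. Mef2c, of the MEF2 family that binds the Slc2a4 promoter in muscle, rose by 8.57 and myogenin (Myog) by 5.63, while the MYC antagonist Mxd3 fell by 4.54. Hif1a, which drives Slc2a1 and Ldha in hypoxia, was not called at a log2 change of −0.05, and Myc fell by 0.23. Epas1, in the same list, rose by 4.13, on 6 counts in the myoblast group and 74 in the myotube group. Hif1a, Myc and Epas1 were named after their values were seen, and these are RNA levels only.

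The genes whose profile was most like that of Slc2a4, by Pearson's r of log2(CPM + 1) over the 6 libraries among 16 genes with a log2 change within 0.2 of its own, were C1qtnf3, Plpp7 and Tmem38a, each with r = 0.998. For Slc2a1 they were Efnb2, Pkp2 and Dpysl2 among 465 genes, each with r of 0.999. These 6 libraries form 2 groups, so r mainly repeats the difference between groups and is given as a description.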

How the data were processed

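Poly(A) RNA libraries of 3 myoblast and 3 myotube samples were analysed. The deposited table by the authors holds raw counts of reads for each gene, with Entrez IDs and symbols. The submitters' processing notes list fastp, STAR, featureCounts and mm10 (versions, strand and multi-match settings: not given in the sources used here). All value columns were used, and groups come from the sample titles.

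The counts were tested with edgeR 4.0.16 in R 4.3.3: filterByExpr (minimum count 10, minimum total 15; 12800 genes kept), TMM, robust quasi-likelihood F test, Benjamini-Hochberg over all genes at 0.05, and glmTreat at a log2 threshold of 1. Each SE was derived from the log2 change and its F statistic. On simulated data at these depths, over 12691 genes, 94.9% of genes changed by 1 on the log2 scale and 100% of those changed by 2 were recovered. The simulation gave every gene the same small spread in both groups. Members such as Ldha and Slc16a3 had a coefficient of variation of 18.0% and 23.8% in myotubes. The recovery rates therefore do not describe such members. Ratios were taken as log2 of counts plus 0.5 within a library and compared by exact permutation. Between replicates of a group, chi-square per degree of freedom was 1.29 to 2.78 and no libraries were identical.

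Alternatives were DESeq2 1.42.0 (size factors, Wald test), limma-voom 3.58.1, total-count scaling, 2 other filters, thinning, the replicate block, leaving out each library and, for ratios, an offset of 5. Exon lengths, overlaps and copies come from GENCODE vM21, and promoters and positions from RefSeq GRCm38.p6.

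Named genes were all 10 members and, from each further list, called genes averaging 1 CPM or more: the top 2 by size of change on the side with most calls, and the top gene on the other side; a gene this rule names is not reported here. The members and lists were chosen with earlier results of these data known.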

Additional observations from a re-analysis of the deposited data

How the results depend on the processing

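Of the 10 genes, 8 were called in edgeR with TMM, where 79.5% of all genes tested were called. Between 8 and 10 were called in the 14 alternatives, for which the share of all genes called was not computed. The 8 called genes kept their direction and their call in all of these. Ldha and Slc16a3 did not. With total counts in place of TMM their log2 changes were −0.092 and −0.037, and that scaling moved the median of all genes by −0.15. Leaving out 1 library at a time gave −0.084 to 0.18 for Ldha and −0.065 to 0.28 for Slc16a3, both negative without myotube library 1 and both passing without myotube library 3 (edgeR adjusted p = 0.000836 and 0.000726). The cause was not tested. The count past 2-fold was 3 or 4, where 21.6% of all genes tested passed in the main fit. Slc2a3 was added by thinning (glmTreat adjusted p = 0.0418) and when myotube library 2 was left out (glmTreat adjusted p = 0.0338). With replicate number as a block, 8 members were again called and the Slc2a1 change was −1.23; the block changed no call. Same-numbered libraries had r = 0.00770, 0.0426 and 0.0267 over genes, and each library correlated best with its own number. The labels do not say that replicate numbers pair cultures, so the main test did not treat them as pairs. The 4 ratios kept their sign in all 9 of their alternatives. Depth limits Slc2a3, Slc2a4, Ldhb and Mpc1, which had 8 to 46 counts per myoblast library.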
